A study of Danio rerio with 24 samples.

Results

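The genes described here make, carry and control bile acids, and they were measured by RNA sequencing of whole livers from zebrafish. They were chosen by symbol, as the genes for the synthesis enzymes cyp7a1, cyp8b1 and baat, the transporters abcb11b and slc10a1, the receptor nr1h4, the repressor nr0b2a, and the hormone fgf19 with its receptor fgfr4. Of these 9 symbols, 7 were matched, and they gave 9 of the 32520 genes in the files because cyp8b1 is listed under 3 Ensembl identifiers. The symbols abcb11b and baat were not matched. A gene listed as ABCB11 (ENSDARG00000070078), which is separate from the listed abcb11a, is given beside the members for its role in bile salt export. It may be abcb11b, which the names used here do not settle, so it is not counted among the members.

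The study asked how swim training and overfeeding, alone or together, change the fish. All 24 fish were adults of the ABTL strain and were kept at 6 per tank. They fell into 4 groups of 6, each with 3 males and 3 females. All were fasted overnight before they were killed, which for trained fish was 24 h after the last session. Fish of the OF-training group were overfed, with 9 mL of live shrimp per fish, and trained, with 20 sessions over 8 weeks. The NF-training group was trained on normal feed, the OF-control group was overfed without training, and the NF-control group had normal feed and no training. With 6 fish in a tank and 6 in a group, tank and group cannot be told apart.

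Bile acids are made from cholesterol in hepatocytes, pumped into bile, and taken up again from gut and blood. Zebrafish bile holds mainly a sulfated bile alcohol, made by enzymes of the same families. In mammals the pathway is held in check by its products: bile acids bind the nuclear receptor FXR, encoded by nr1h4, which induces the repressor SHP, encoded by nr0b2, in liver and the hormone FGF19 in the intestine, and both lower transcription of CYP7A1.

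Total estimated counts lay between 20679862 and 21399321 in males and between 19315642 and 20777125 in females, but vitellogenin, the egg yolk precursor made by the female liver, took 0.007 to 0.159% of these counts in males and 29.3 to 74.5% in females. Females therefore had fewer counts left for all other genes, and low genes were measured less precisely in them. Levels are given as CPM, a gene's count relative to its library's size, after TMM scaling, which sets library sizes by the bulk of genes. The order of the genes within a liver is given in TPM, the share of transcripts, which also accounts for transcript length. Where genes are set side by side in counts or CPM, as for the cyp8b1 copies, the log2 ratio of cyp7a1 to cyp8b1 and the markers, length is not accounted for. The sex labels fitted the markers of the female liver, with log2 fold changes of males over females of -12.83 for vtg1, -12.73 for vtg2 and -7.81 for the estrogen receptor gene ESR1. In bulk tissue, fewer cells of a type and less RNA per cell cannot be told apart.

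A pair of fish stood apart in the genes described here. NF-control male 4 held intestinal transcripts: its summed level of 10 enterocyte markers was 3640 CPM, against 334 to 1130 CPM in the other 11 males and 118 to 505 CPM in the 12 females, and VIL1, which encodes a protein of the brush border, stood at 198 CPM, against at most 2.78 CPM in the other 23 fish. NF-training female 3 had the lowest vitellogenin share of all females, at 29.3%, and the highest summed level of 9 bile duct markers, at 1270 CPM, against 386 to 650 CPM in the other 11 females. Many results that rest on either fish are given with and without it, and where values without it are not given this is said.

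**Figure D1:**
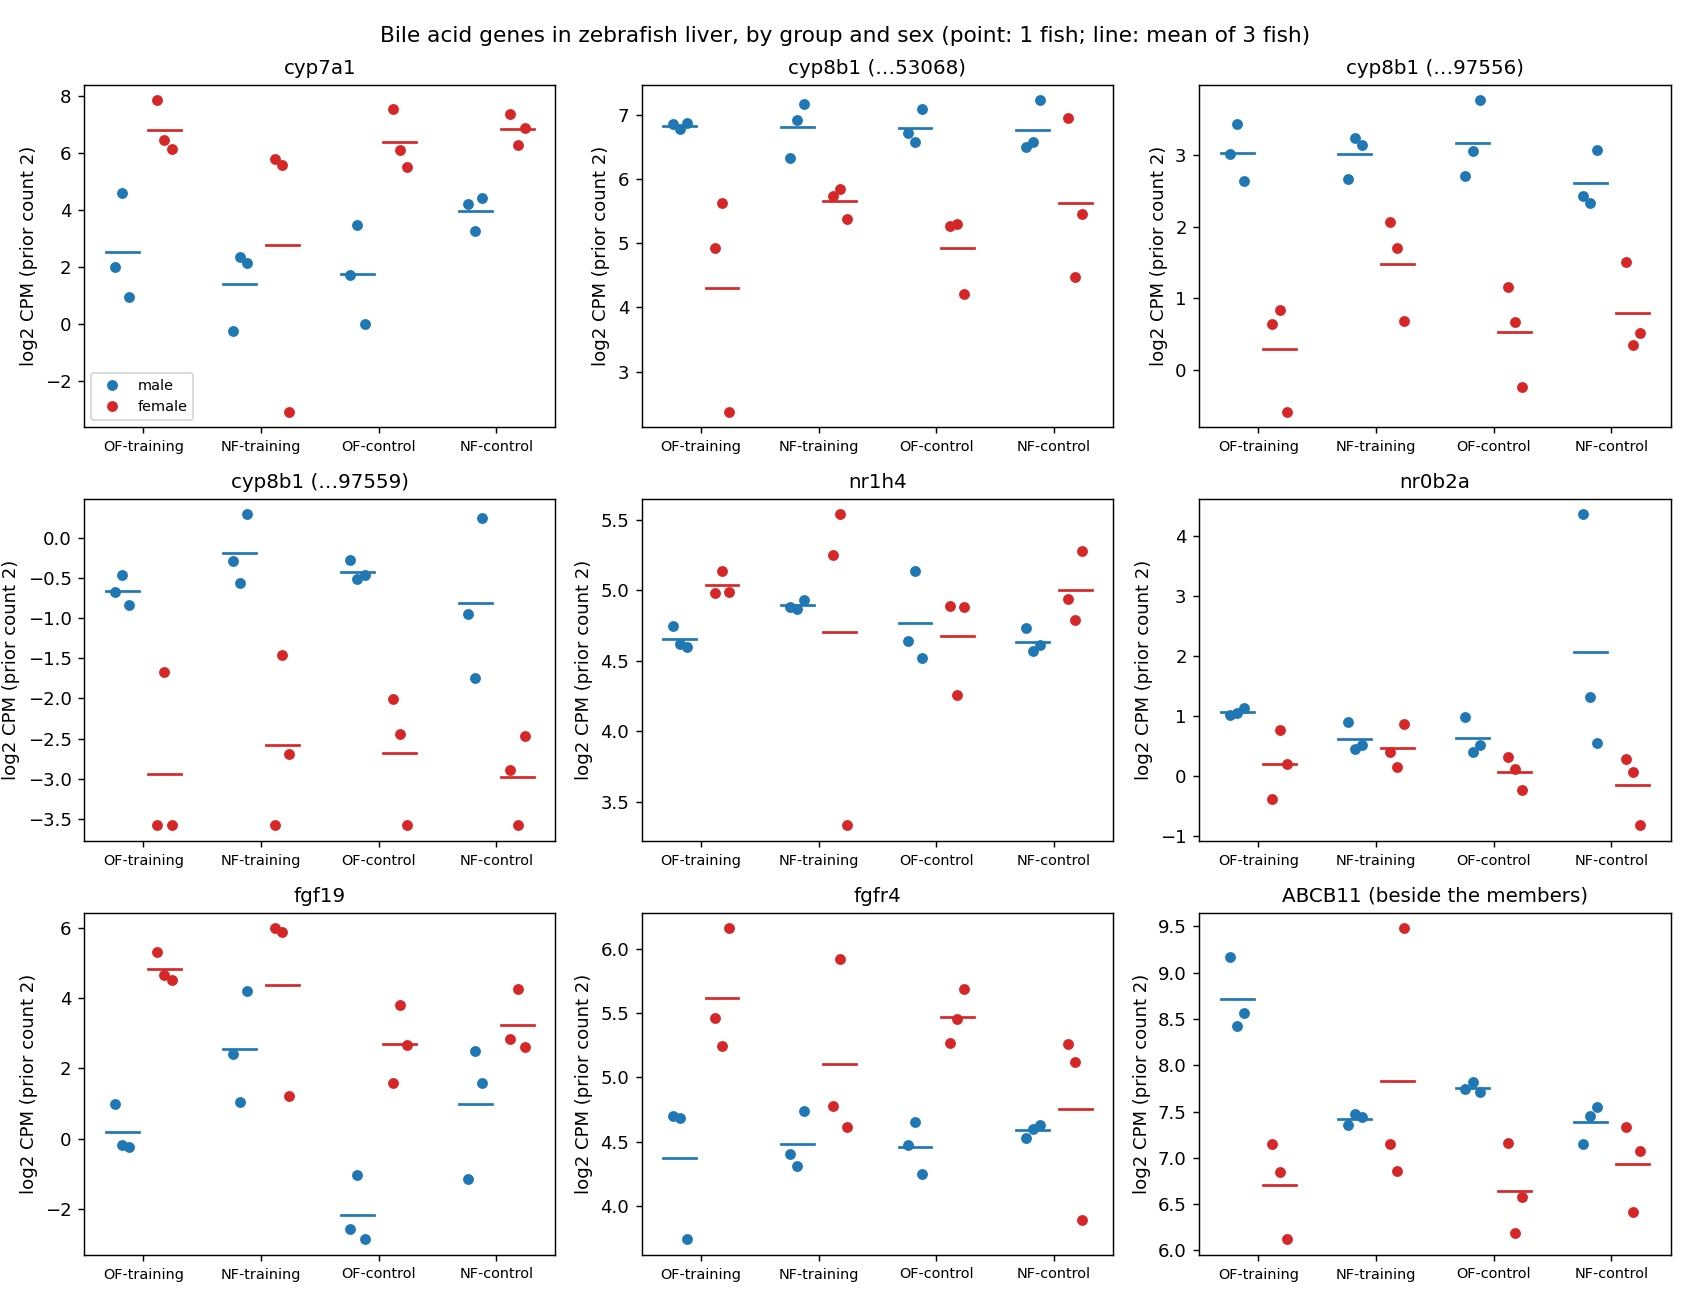
Level of each gene as log2 CPM (vertical axis, prior count 2) in the 4 groups (horizontal axis), with males in blue to the left of females in red. Each point is 1 fish and each line the mean of 3 fish. The mean of males lies below that of females in every group for cyp7a1 and fgf19 and above it for the 3 cyp8b1 genes, with NF-training female 3 as the lowest cyp7a1 point and the highest ABCB11 point.

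Within a liver, the order of the genes differed between the sexes. In males, cyp8b1 (ENSDARG00000053068) led with a median of 113 TPM, followed by ABCB11 with 51.0 TPM and nr1h4 with 25.5 TPM, while cyp7a1 had a median of 4.61 TPM and fgf19 one of 2.74 TPM. In females, cyp7a1 led with a median of 45.0 TPM, followed by the same cyp8b1 gene with 27.01 TPM, fgf19 with 21.4 TPM, nr1h4 with 19.5 TPM and ABCB11 with 17.5 TPM. These neighbours overlapped in range: cyp7a1 spanned 0.031 to 140 TPM in females and cyp8b1 3.24 to 104 TPM. The uptake transporter gene slc10a1 was near the floor of detection throughout, with a median of 0.218 TPM in males and 0.156 TPM in females, and with 0 to 16 estimated counts per fish it was too low to be tested. The 8 other members passed the filter on low counts, ENSDARG00000097559 of cyp8b1 only through the males.

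ENSDARG00000097559, which passed the filter only through the sex in which it is high, was bound to differ and is left out of the counts below. Of the other 7 genes, 6 differed between males and females over all 24 fish with group in the model, 3 of them higher and 3 lower in males. Across all 16223 genes tested, 45.8% were called in this comparison, 23.2% higher and 22.6% lower in males, so a difference between the sexes was common in this liver. Each fold change is male over female, with its standard error (SE) and the p-value of edgeR's quasi-likelihood test, adjusted by Benjamini-Hochberg over all genes tested and called under 0.05.

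Cyp7a1 (ENSDARG00000069018), the rate-limiting enzyme of the classic route, was the member with the lowest level in males relative to females. Its level was 0.766 to 23.9 CPM in the 12 males, with a median of 4.67 CPM, and 0.0354 to 229 CPM in the 12 females, with a median of 73.6 CPM. In the OF-training group it was 3.88, 23.9 and 1.87 CPM in the males and 229, 88.5 and 69.8 CPM in the females. In the NF-training group it was 0.766, 5.04 and 4.30 CPM in the males and 55.6, 48.2 and 0.0354 CPM in the females, the last being a single count in female 3. In the OF-control group it was 3.18, 11.2 and 0.928 CPM in the males and 185, 68.4 and 45.3 CPM in the females, and in the NF-control group 18.6, 9.62 and 21.2 CPM in the males and 166, 77.5 and 118 CPM in the females. All males lay below all females in 3 of the 4 groups, and female 3 was the only female within or below the male range. The share of all genes that separate without overlap was not counted, here or below. The log2 fold change was -3.55 (SE 0.63, adjusted p = 6.64e-05), which is a level 11.7-fold higher in females on the TMM scale. Without female 3 it was -3.69 (adjusted p = 1.41e-06). Over the alternatives other than leaving out 1 fish, among them other scalings and single groups, it ranged from -4.31 to -2.03, with adjusted p up to 0.244.

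Cyp8b1, the sterol hydroxylase that in mammals sets the share of cholic acid in bile, ran the other way at the 2 listed genes that were measured in both sexes. The most abundant, ENSDARG00000053068, was at 80.3 to 149 CPM in males, with a median of 112 CPM, and at 5.12 to 122 CPM in females, with a median of 40.4 CPM. It averaged 113 ± 21.6 CPM in males and 43.5 ± 29.1 CPM in females (SD, n = 12 each), so males varied less relative to their level. In the females of the OF-training group it was 30.1, 49.2 and 5.12 CPM, and in those of the NF-control group 122, 22.2 and 43.8 CPM, where female 1 reached the male range. The log2 fold change was 1.46 (SE 0.29, adjusted p = 0.000274). Over the same alternatives it ranged from 0.8 to 2.79, with adjusted p up to 0.455.

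The other cyp8b1 genes were scarcer. ENSDARG00000097556 was at 4.94 to 13.5 CPM in males and 0.580 to 4.13 CPM in females, so that the sexes did not overlap over the 24 fish, with a log2 fold change of 2.14 (SE 0.24, adjusted p = 1.93e-07). ENSDARG00000097559 had 8 to 40 estimated counts in each male and 0 to 3 in each female, 13 over all females against 272 over all males, and is described by these counts alone. RefSeq's annotation of the GRCz12tu assembly places 3 cyp8b1 genes on 1 chromosome with no other protein-coding gene between them, 1 pair of them overlapping, so reads may have been divided among the copies. The first of the 3 took 90.5 to 94.9% of their summed counts in males and 89.8 to 97.8% in females.

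The ratio of cyp7a1 to cyp8b1 within a fish does not depend on how libraries are scaled against each other. In TPM, cyp7a1 stood at 0.00683 to 0.218 of the level of cyp8b1 (ENSDARG00000053068) in males, with a median of 0.0375, and at 0.00085 to 13.5 times that level in females, with a median of 2.12. In the OF-training group the ratios were 0.0334, 0.218 and 0.0158 in the males and 7.56, 1.79 and 13.5 in the females. In the NF-control group they were 0.205, 0.0998 and 0.141 in the males and 1.35, 3.47 and 2.67 in the females. Without NF-training female 3, whose ratio was 0.00085, the females spanned 0.829 to 13.5 and did not overlap with the males. The mean log2 ratio of counts was -4.42 in males and 0.479 in females, a difference of -4.90, and without female 3 the difference was -5.69. This ratio was chosen after both genes had been seen to differ in opposite directions, so it is a description without a test.

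**Figure D2:**
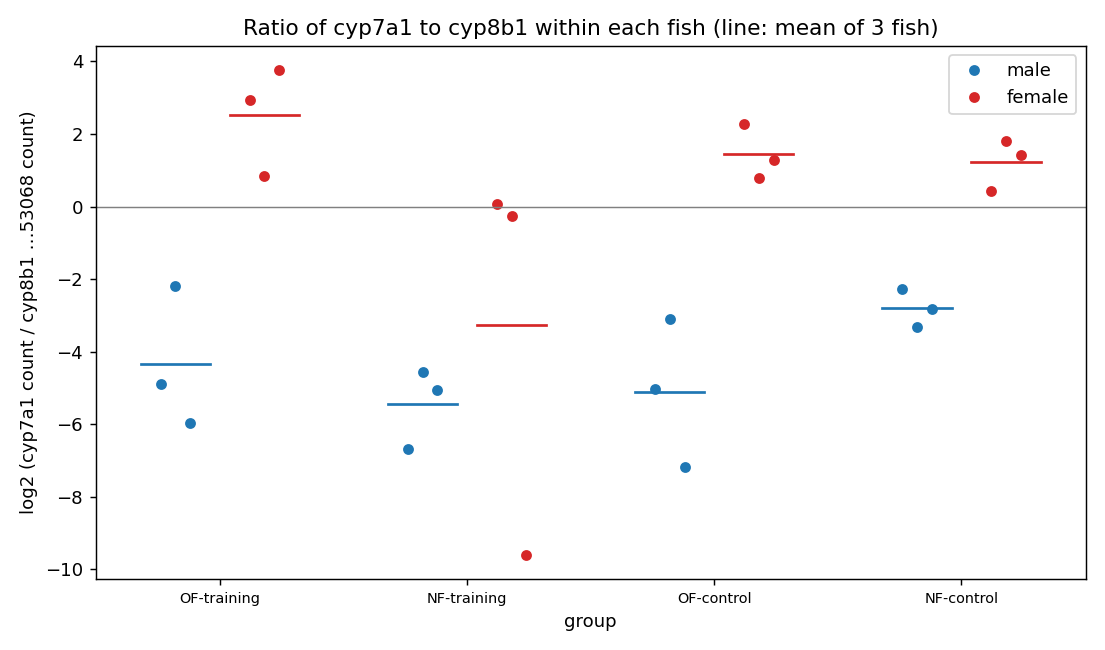
Log2 ratio of the cyp7a1 count to the count of the most abundant cyp8b1 gene within each fish (vertical axis, 0.5 added to each count), by group (horizontal axis), with males in blue to the left of females in red and a line at the mean of 3 fish. The 12 males lie below 0, and the females lie above the males of their group except NF-training female 3.

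Fgf19 (ENSDARG00000098663), the hormone that in humans is secreted by the ileum and represses bile acid synthesis in the liver, was also lower in males. It was at 0.0530 to 18.4 CPM in males, with a median of 1.34 CPM, and at 2.23 to 63.7 CPM in females, with a median of 16.6 CPM. The log2 fold change was -3.37 (SE 0.62, adjusted p = 0.000113), a level 10.3-fold higher in females on the TMM scale. Over the alternatives other than leaving out 1 fish it ranged from -5.46 to -1.84, with adjusted p up to 0.293. All males lay below all females in 3 of the 4 groups, NF-training being the exception. The 10 enterocyte markers summed to a median of 732 CPM in males and 242 CPM in females. Most of this was apoa4b.1, at medians of 588 CPM in males and 212 CPM in females. In NF-control male 4 apoa4b.1 was at 542 CPM, within the 94.8 to 1090 CPM of the other 23 fish, so it did not set that male apart. Over these 23 fish the medians of VIL1, chia.1, chia.2, mep1a.1 and FABP6 were 0.658, 0.107, 0.09, 0.028 and 0 CPM. Those of FABP2, cdx1b, cdx1a and apoa4b.2 were 2.31, 2.45, 3.28 and 13.2 CPM. By sex, VIL1 was at medians of 0.633 CPM in males and 0.719 CPM in females. Of the 6 markers tested, 5 were called higher in males, beside 23.2% of all genes. Of these 5, FABP2, cdx1b and apoa4b.2 were highest in NF-control male 4. FABP2 was at 704 CPM there, against at most 16.0 CPM in the other 23 fish. Cdx1b was at 37.7 CPM, against at most 5.07 CPM. Cdx1a and apoa4b.1 lay within the range of the other fish. Fold changes without that male are not given for the markers, so how far these calls rest on it was not tested. The part of the markers in the fgf19 levels was not tested.

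Fgfr4 (ENSDARG00000069105), the receptor for fgf19, was moderately lower in males, at 13.3 to 26.6 CPM with a median of 23.6 CPM, against 14.7 to 71.2 CPM with a median of 38.3 CPM in females. The log2 fold change was -0.82 (SE 0.19, adjusted p = 0.000971). With library size alone as the scale, which moved the median of all genes to 1.44, the value for fgfr4 turned to 0.59.

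Nr1h4 (ENSDARG00000057741), which encodes FXR, was at 22.9 to 35.1 CPM in males and 9.99 to 46.5 CPM in females, with a log2 fold change of -0.19 (95% interval -0.53 to 0.15, adjusted p = 0.366). NF-training female 3 had the lowest nr1h4 level, and without this fish the log2 fold change was -0.29 (adjusted p = 0.0299). The direction depends on the scaling, turning to 0.50 in TPM with 1 added and to 1.3 with library size alone.

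Nr0b2a (ENSDARG00000044685, listed as NR0B2), the repressor induced by FXR in mammals, was higher in males, but its size rested on a single fish. It was at 20.6 CPM in NF-control male 4 and at 1.23 to 2.39 CPM in the other 11 males, against 0.480 to 1.74 CPM in the females. The log2 fold change was 1.16 (SE 0.42, adjusted p = 0.0272), and 0.63 without that male (adjusted p = 0.00725). In the plot of levels this male, which also carried the enterocyte transcripts given above, stands far above all others, and the part of intestinal tissue in its nr0b2a level was not tested.

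The canalicular bile salt export pump gene ABCB11 was at 142 to 576 CPM in males, with a median of 198 CPM, and at 69.4 to 714 CPM in females, with a median of 125 CPM. NF-training female 3 had 714 CPM, and the other 11 females had 69.4 to 161 CPM. With this fish the log2 fold change was 0.64 (SE 0.33, adjusted p = 0.12), and without it 0.98 (adjusted p = 0.000361). The same fish thus had the highest ABCB11 and the lowest cyp7a1 and nr1h4 levels of the 24. Its bile duct markers were also the highest, as given above, and their part in these levels was not tested.

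Group by group, the sex difference rested on 3 males against 3 females, with the spread estimated over all 24 fish. In the OF-training group 4 of the 7 genes were called, against 18.7% of all genes tested (7.99% higher and 10.7% lower in males): 2 cyp8b1 genes (ENSDARG00000053068 at 2.01 and ENSDARG00000097556 at 2.72) were higher in males, and fgf19 (-4.66, adjusted p = 0.00654) and fgfr4 (-1.24) were lower. In the NF-training group 1 gene was called, against 10.1% of all genes (4.21% higher, 5.89% lower), namely ENSDARG00000097556 of cyp8b1 at 1.51. In the OF-control group 4 genes were called, against 20.6% of all genes (9.3% higher, 11.3% lower): ENSDARG00000053068 at 1.80, ENSDARG00000097556 at 2.67, fgf19 at -5.43 (SE 1.26, adjusted p = 0.00437) and cyp7a1 at -4.29 (SE 1.35, adjusted p = 0.028). In the NF-control group 2 genes were called, against 14.2% of all genes (5.62% higher, 8.63% lower), namely ENSDARG00000097556 at 1.76 and nr0b2a at 3.21. Nr0b2a lost its call there without male 4 (1.1, adjusted p = 0.0783). Some of these calls were lost when 1 fish was left out, which also lowered the calls over all genes. Those fell to as few as 1605 in OF-training (3030 with all fish) and 853 in NF-training (1638). In OF-control they fell to as few as 2180 (3338), and in NF-control to 867 (2311). The losses below therefore cannot be told from this general fall. In OF-training, ENSDARG00000053068 and fgfr4 lost theirs without replicate 3 or replicate 6, which left 2 of the 4. In NF-training the 1 call was lost without replicate 2, 5 or 6. In OF-control 2 of the 4 were left without replicate 1, 3 or 4, ENSDARG00000097556 and fgf19. In NF-control, ENSDARG00000097556 lost its call without replicate 2, 3 or 6.

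Cyp7a1 was lower in males in all 4 groups, with log2 fold changes of -3.71 in OF-training, -3.35 in NF-training, -4.29 in OF-control and -2.87 in NF-control, although only the OF-control value was called with all fish. With each of the 24 fish left out in turn, its adjusted p ranged from 0.0109 to 0.171 in OF-training, from 0.0196 to 0.264 in NF-training, from 0.00434 to 0.105 in OF-control and from 0.0419 to 0.269 in NF-control. The lowest of each was without NF-training female 3, and the OF-control call was lost without replicate 1, 3 or 4 of that group (adjusted p = 0.105, 0.1 and 0.0783). Without both fish that stand apart, the NF-control value was again not called (adjusted p = 0.0995). ABCB11 differed most in the OF-training group, where it was 576, 342 and 377 CPM in males and 142, 115 and 69.4 CPM in females (log2 fold change 1.99, SE 0.50, adjusted p = 0.00854). These males had the highest ABCB11 levels of all fish other than NF-training female 3. Whether the sex difference varied over the 4 groups was tested across all genes. Of 16223 genes, 946 had an unadjusted p under 0.05, a level that about 1 in 20 genes without any difference reach by chance. After adjustment 0 passed in edgeR. ABCB11 had an unadjusted p of 0.00366 (adjusted p = 0.807) and nr0b2a one of 0.0204 (adjusted p = 0.823). Both are with all fish, and values without NF-training female 3 or NF-control male 4 are not given.

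**Figure D3:**
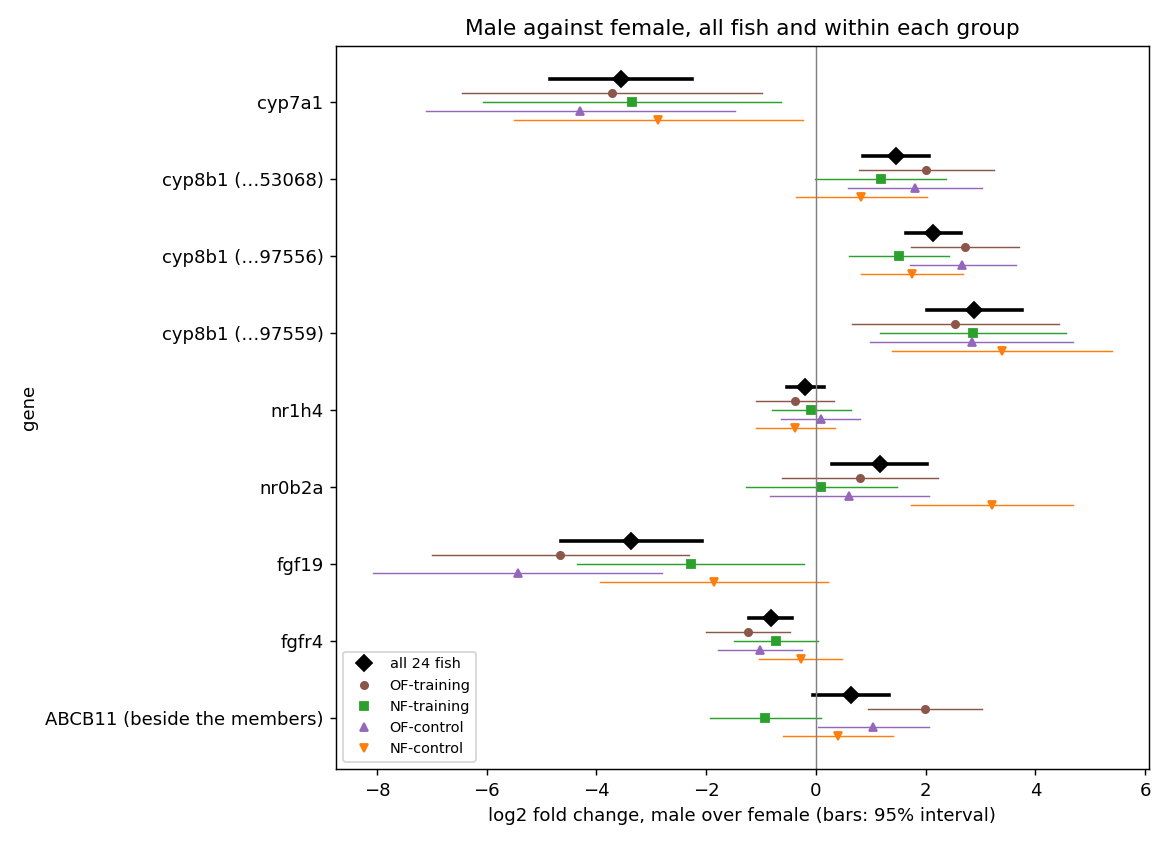
Log2 fold change of males over females (horizontal axis) for each gene (vertical axis), over all 24 fish (black diamonds) and within OF-training, NF-training, OF-control and NF-control (coloured symbols), with 95% intervals. Cyp7a1 and fgf19 lie left of 0 and the cyp8b1 genes right of 0 in every group, and fgfr4 lies left of 0 at -0.82 over all fish on this TMM scale but at 0.59 with library size alone.

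The other genes of the pathway were read from lists of synthesis enzymes, transporters and regulators. Of 30 matched synthesis genes 23 were tested, and 13 were higher and 1 was lower in males, with a median log2 fold change of 0.69 against 0.06 for all genes, of which 23.2% were called higher and 22.6% lower. The split depends on the scaling. It was 19 higher and 1 lower in TPM with 1 added and 21 and 0 with library size alone. There the median of all genes is 0.36 and 1.44, and library size alone called 14428 of all 16223 genes. These counts are therefore not read as particular to the synthesis genes. Sult2st1, with 0 to 2 estimated counts per female and 4 to 56 per male, passed the filter only through males. It stays among the genes tested although, like ENSDARG00000097559, it was bound to differ. Slc27a2b, an acyl-CoA synthetase of the family that activates bile acid precursors, was higher in males with a median of 109 CPM, against 20.5 CPM in females (log2 fold change 2.32, SE 0.20). Cyp46a1.3, of the cholesterol 24-hydroxylase family, was at medians of 21.6 CPM in males and 5.96 CPM in females (1.79, SE 0.23), and cyp27a1.1, of the sterol 27-hydroxylase family that opens the alternative route, at 82.6 CPM in males and 27.4 CPM in females (1.66, SE 0.22). The gene HSD3B7, whose enzyme acts on the product of cyp7a1, was at medians of 124 CPM in males and 23.1 CPM in females (2.76, SE 0.54), and was singled out after its values were seen. The gene lower in males was cyp39a1, an oxysterol 7-hydroxylase, at medians of 0.337 CPM in males and 5.10 CPM in females (-2.91, SE 0.80, adjusted p = 0.00498). Within single groups the called synthesis genes were 9 of 23 in OF-training, where 7.99% of all genes were called higher, 6 in NF-training (4.21%), 6 in OF-control (9.3%) and 4 in NF-control (5.62%), all of them higher in males.

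Of 28 matched transporter genes 18 were tested, and 9 were higher and 1 was lower in males, beside the same 23.2% and 22.6% of all genes, with a median log2 fold change of 0.66. In TPM with 1 added 14 were higher and 0 lower, and with library size alone 17 and 0. At these scalings the median of all genes is 0.36 and 1.44, and library size alone called 14428 of all 16223 genes. These counts are therefore not read as particular to the transporters. Without the female and male that stand apart, 9 were higher and 3 lower, and the share of all genes called then is not given. Abcb11a, with 0 to 4 estimated counts per female and 5 to 326 per male, passed the filter only through males. It stays in these counts although, like ENSDARG00000097559, it was bound to differ. ABCG5 and ABCG8, whose products form the sterol pump of the canalicular membrane, had medians of 24.1 and 43.2 CPM in males and 6.74 and 15.3 CPM in females (log2 fold changes 1.55 and 1.38, SE 0.18 and 0.20). ABCC4, an exporter of the basolateral membrane, had a median of 50.8 CPM in males and 3.19 CPM in females (3.53, SE 0.50). SLC10A7 was lower in males (-0.71, SE 0.14), a direction that turned to 0.69 with library size alone. Slco1d1, an organic anion uptake transporter, was abundant at a median of 491 CPM in males and 241 CPM in females (1.02, SE 0.15). It was singled out after its values were seen.

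Of 29 matched regulator genes 26 were tested, and 6 were higher and 5 lower in males, with a median log2 fold change of 0.01. These 11 of 26 are near the 45.8% called over all genes. The split was 18 higher and 3 lower in TPM with 1 added and 21 and 0 with library size alone. There the median of all genes is 0.36 and 1.44, so these counts are not read as particular to the regulators. PROX1, a hepatocyte regulator that in mammals represses CYP7A1, was at medians of 106 CPM in males and 30.2 CPM in females (1.85, SE 0.19), HNF4A at 147 CPM in males and 60.8 CPM in females (1.12, SE 0.17), and FOXA2 at 40.5 CPM in males and 27.8 CPM in females (0.58, SE 0.11). Foxa3 was lower in males (-1.71, SE 0.16), as were srebf2, the sterol-sensing activator of cholesterol synthesis (-1.33, SE 0.20), and NR5A2, which in mammals activates CYP7A1 and CYP8B1 (-0.52, SE 0.09). With library size alone srebf2 turned to 0.14 and NR5A2 to 0.86, and in TPM NR5A2 stood at 0.10. Hepatocyte markers summed to a median of 116000 CPM in males and 70600 CPM in females. Of these markers, 6 of 12 were called higher in males, beside 23.2% of all genes. Of 3 erythrocyte markers, hbaa2 (1.70) and alas2 (1.17) were called higher in males, with a median sum of 107 CPM in males and 58.7 CPM in females. The part of these cells in the list counts was not tested.

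**Figure D4:**
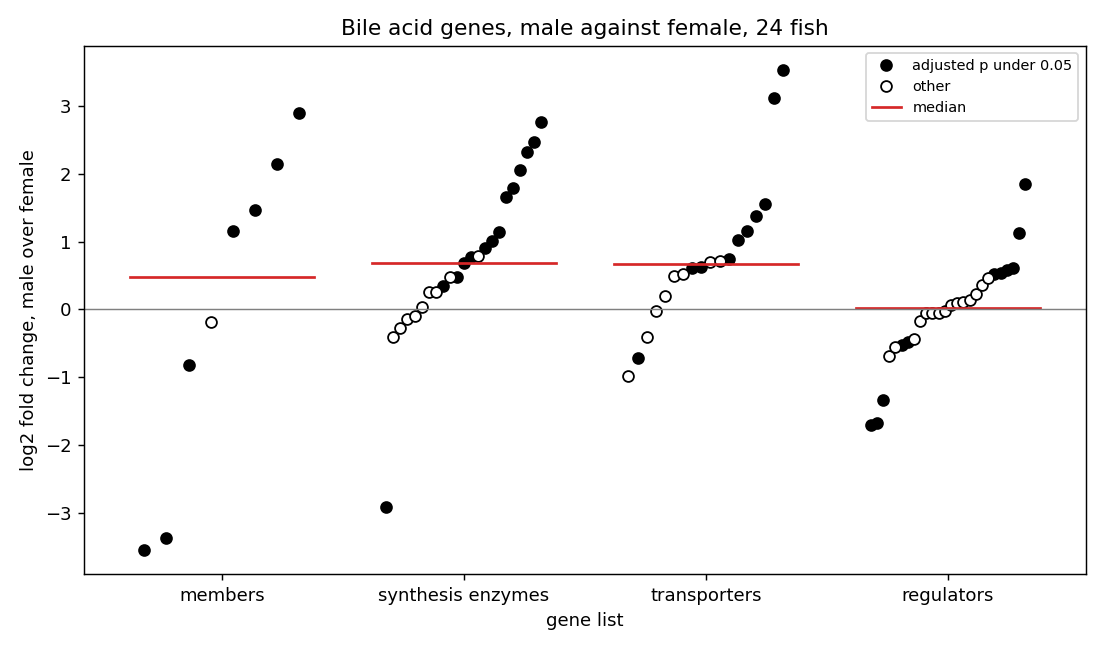
Log2 fold change of males over females (vertical axis) for each tested gene of 4 lists (horizontal axis), with filled points for an adjusted p under 0.05, open points for the others and a red line at the list median. The medians are 0.49 for the members (ENSDARG00000097559 included), 0.69 for synthesis enzymes, 0.66 for transporters and 0.01 for regulators on the TMM scale, and with library size alone the median of all genes moves to 1.44.

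Neither overfeeding nor training changed any of the 8 tested genes past the threshold of edgeR's test, and few genes of the whole liver passed it. In OF-training over NF-training, 0 of the 8 were called, as were 0% of all genes, though 1461 of 16223 had an unadjusted p under 0.05. About 1 in 20 genes without any difference reach that level by chance. In OF-control over NF-control the share was likewise 0%, with 1829 such genes. In OF-training over OF-control 0.00616% of all genes were called, with 854 at that unadjusted level. In NF-training over NF-control 0.173% were called (0.0185% higher, 0.154% lower), with 1806 at that level, and again 0 of the 8.

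Over both training states overfeeding called 0.0801% of all genes (0.0308% higher, 0.0493% lower), with 2708 at the unadjusted level. Over both feeding states training called 0.333% (0.037% higher, 0.296% lower), with 1863 at that level. None of the 8 genes was called by edgeR in either. DESeq2 called 1 in each, but its own count over all genes is not given. The alternatives other than leaving out 1 fish, DESeq2 among them, called up to 313 and 208 of all genes. The interaction of training and overfeeding called 0% of all genes, with 725 at the unadjusted level. No gene of the 3 pathway lists was called by edgeR in these comparisons, and the list medians lay between -0.13 and 0.23 on the log2 scale.

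Fgf19 was the gene that DESeq2 called over both feeding states and over both training states. In males it was 1.88, 0.801 and 0.771 CPM in OF-training, 5.21, 1.97 and 18.4 CPM in NF-training, 0.0822, 0.3995 and 0.0530 CPM in OF-control and 0.364, 5.59 and 2.93 CPM in NF-control. In females it was 39.2, 25.2 and 22.8 CPM in OF-training, 63.7, 59.0 and 2.23 CPM in NF-training, 2.89, 13.9 and 6.28 CPM in OF-control and 7.02, 19.2 and 6.05 CPM in NF-control. The OF-training fish all lay above the OF-control fish of their sex, and the OF-training males all lay below the NF-training males. These are sets of 3 fish, and the share of all genes that separate in this way was not counted, so this is a description only. NF-training female 3, at 2.23 CPM, lay below every NF-control female.

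Averaged over both feeding states, fgf19 had a log2 fold change of 1.85 for trained over untrained fish (SE 0.56, unadjusted p = 0.00316, adjusted p = 0.197). Averaged over both training states, it was -1.81 for overfed over normally fed fish (SE 0.60, unadjusted p = 0.00655, adjusted p = 0.17). DESeq2 gave nearly the same sizes and called both, at 1.87 (adjusted p = 0.0388) and -1.94 (adjusted p = 0.0282). Over the alternatives tried, the adjusted p ranged from 0.0388 to 0.644 for training and from 0.0282 to 0.759 for overfeeding. In untrained males alone, OF-control over NF-control, the log2 fold change was -4.06 (SE 1.22, adjusted p = 0.184, and 0.0098 with DESeq2), from 3, 13 and 2 estimated counts in the OF-control males, and edgeR called 0.0247% of all genes there (0.0123% higher and 0.0123% lower). The difference between the sexes in this effect did not pass (-3.58, SE 1.55, adjusted p = 0.862). In the separate comparisons the value for fgf19 was 2.02 for OF-training over OF-control, 1.67 for NF-training over NF-control, -1.63 for OF-training over NF-training and -1.98 for OF-control over NF-control. These comparisons share groups with each other, and none passed adjustment. Without NF-training replicate 6 the value for NF-training over NF-control was 0.84 and that for OF-training over NF-training -0.96.

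Cyp7a1 had a log2 fold change of -2.08 in NF-training over NF-control (SE 0.83, 95% interval -3.80 to -0.37, adjusted p = 0.355) and of 1.73 in OF-training over NF-training (SE 0.82, adjusted p = 0.551). Its NF-training levels were 0.766 to 5.04 CPM in males and 0.0354 to 55.6 CPM in females, against 9.62 to 21.2 CPM in NF-control males and 77.5 to 166 CPM in NF-control females. Without female 3 the value was -1.82 (adjusted p = 0.322). The interaction of training and overfeeding was 2.70 (SE 1.15, unadjusted p = 0.0276, adjusted p = 0.999).

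The most abundant cyp8b1 gene had log2 fold changes of -0.41 in OF-training over NF-training (95% interval -1.24 to 0.42), -0.50 in OF-control over NF-control (-1.34 to 0.33), -0.07 in OF-training over OF-control (-0.89 to 0.76) and -0.16 in NF-training over NF-control (-0.99 to 0.67). The widest of these intervals reaches -1.34, close in size to the 1.46 between the sexes. Nr0b2a had -1.59 in OF-control over NF-control (adjusted p = 0.326) and -1.31 in NF-training over NF-control (adjusted p = 0.405), and both rested on NF-control male 4, without which they were -0.10 and 0.12. In untrained males overfeeding gave -2.45 and in normally fed males training gave -2.47 (adjusted p = 0.129 and 0.222), values that DESeq2 called (adjusted p = 0.0174 and 0.0337) and that were -0.34 and -0.36 without that male. With all fish, ABCB11 had 0.78 for trained over untrained fish (SE 0.31, unadjusted p = 0.0207, adjusted p = 0.34), and its value without NF-training female 3 is not given. In normally fed females its 1.35 for training (SE 0.49, adjusted p = 0.288) was 0.03 without NF-training female 3.

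**Figure D5:**
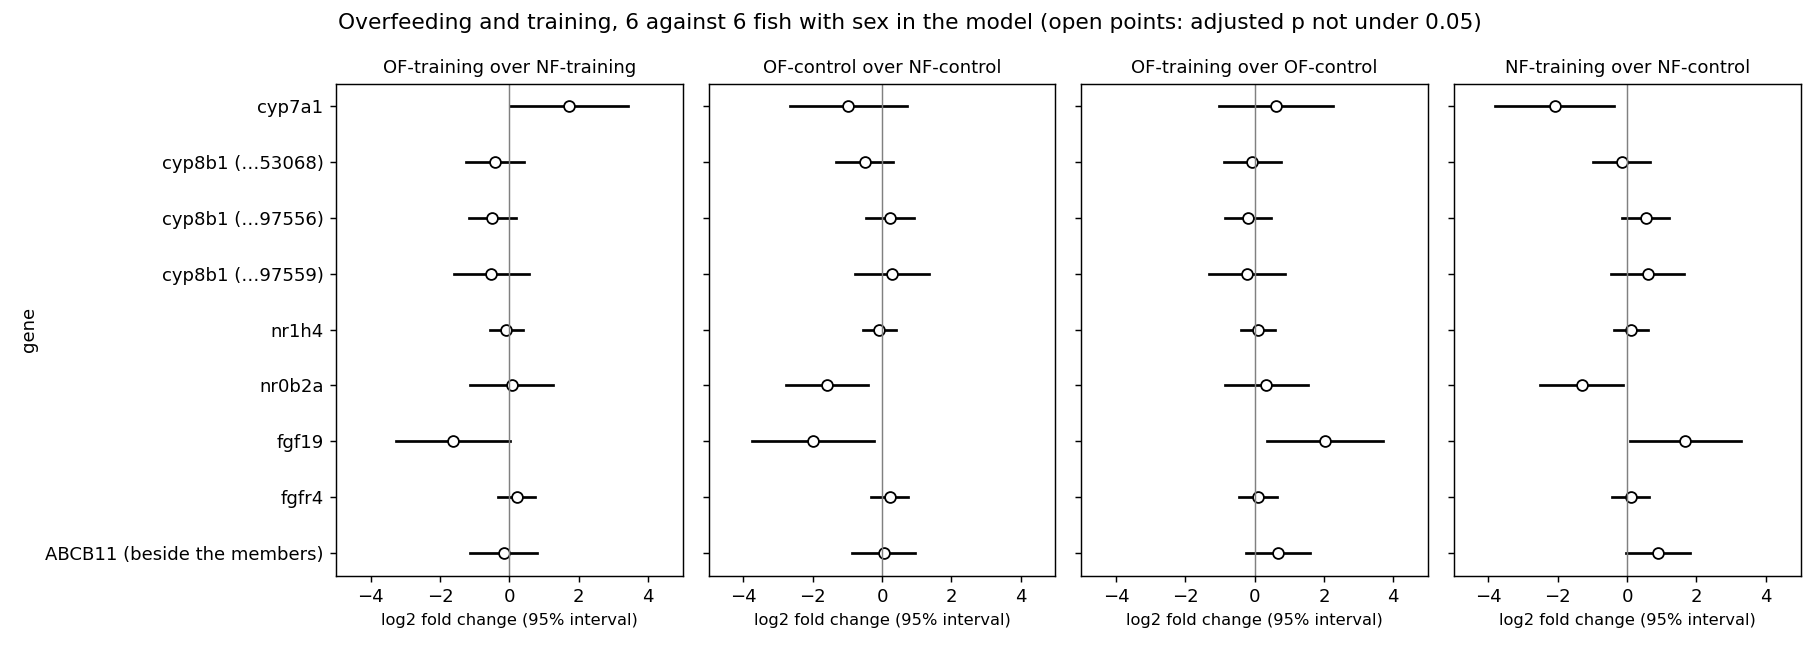
Log2 fold change (horizontal axis) with its 95% interval for each gene (vertical axis) in OF-training over NF-training, OF-control over NF-control, OF-training over OF-control and NF-training over NF-control, from left to right, with sex in the model. All points are open because none passed an adjusted p of 0.05, and fgf19 stands at -1.63, -1.98, 2.02 and 1.67.

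Some genes followed the members from fish to fish once the mean of each group and sex had been subtracted. Over the 24 fish, cyp8b1 ENSDARG00000053068 and ENSDARG00000097556 had a Spearman rho of 0.82 with each other, and cyp7a1 had 0.59 with ENSDARG00000097556 and 0.54 with nr1h4. Fgf19 and fgfr4 had 0.45, and nr0b2a and fgf19 had -0.44. Without subtracting the means, cyp7a1 and the most abundant cyp8b1 gene had a rho of -0.51, against 0.41 within group and sex, so the opposite levels of these enzymes lay between the sexes and not among fish of a sex. The points share library depth and scaling, and these values are descriptions without a test.

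Across all genes tested, cyp7a1 was most like PWWP2A (0.89), TCAIM (0.87) and SLC2A5 (0.87), the last a hexose transporter. The most abundant cyp8b1 gene was most like FDFT1 (0.90), which encodes squalene synthase of the cholesterol pathway, tmem88a (0.89) and si:dkey-172j4.3 (0.87), and ENSDARG00000097556 was most like si:ch211-193l2.10 (0.89), PLEKHH3 (0.89) and KLF11 (0.88). Fgf19 was most like ABCA3 (0.83), ENSDARG00000086317 (0.76) and BSG (0.75), and nr1h4 like NF1 (0.83), COQ3 (0.81) and DIP2B (0.81). For nr0b2a these were btr33 (0.85), cyth4a (0.82) and TESK1 (0.81), and for ABCB11 they were KCNJ1 (0.90), bfb (0.89) and si:ch73-206d17.1 (0.89). For fgfr4 they were VTI1A (0.79), zgc:77486 (0.79) and the unnamed ENSDARG00000117400 (0.79), and for ENSDARG00000097559, with its low counts, the unnamed ENSDARG00000117740 (0.83), EFEMP2 (0.80) and cdh26.1 (0.77).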

How the data were processed

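Livers of 24 zebrafish were sequenced on a BGISEQ-500. The authors trimmed reads with Trim Galore 0.6.4, quantified them with kallisto, and deposited estimated counts and TPM values per gene and fish. Estimated counts were rounded here. Genes were kept by edgeR's filterByExpr by group (minimum count 10) and tested with its quasi-likelihood F test (edgeR 4.0.16, R 4.3.3, TMM scaling), with group and sex, or the 8 cells of group and sex, in the model. Adjustment was by Benjamini-Hochberg over 16223 genes, in 19 comparisons. The p-values measure the spread between fish. Alternatives were DESeq2 1.42.0, limma 3.58.1 (voom, and log2 of TPM plus 1 or 0.1), other scalings and filters, a replicate block, single groups, and leaving out each fish. The fitting code was tested on simulated counts with changes set in OF-control alone and no gene set to differ between the sexes.

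Symbols were matched through the gene names table and RefSeq synonyms. Members and lists were chosen with earlier results of these data known. Members were named, and from each list up to 3 higher and 3 lower genes by smallest adjusted p in the comparison of the sexes over all fish. For each member the 3 genes of highest Spearman rho were named, and vtg1, vtg2 and ESR1 served as label check. List genes that the rule names within single groups are given as counts. The cyp7a1 to cyp8b1 ratio and its settings were chosen after seeing the data.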

Additional observations from a re-analysis of the deposited data

Results flagged for a closer look

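Fish that lay far from the other fish of their group were looked for with Dixon's test on log2 CPM in 36 groups of 6 fish, of which chance marks about 1 in 20. Each group mixed males and females without removing sex, so this rate is only rough for genes that differ between the sexes. A fish far from its own sex can also go unmarked, as did NF-training female 3 for cyp7a1. In NF-training, nr1h4 was lowest in female 3, at a log2 CPM of 3.33 with the nearest fish at 4.87. In NF-training, ABCB11 was highest in the same female 3, at a log2 CPM of 9.48 with the nearest fish at 7.47. Fgfr4 was highest in NF-training female 2, at a log2 CPM of 5.92 with the nearest fish at 4.78.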

How the results depend on the processing

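The counts of called members here include ENSDARG00000097559, which passed the filter only through males and which the comparisons above leave out. Over 42 alternatives, 646 of 676 counts of called members stayed within 1.5 times the reported count. Outside the comparisons of males with females the reported count was 0, and a 0 that stayed 0 counted as unchanged. The 646 therefore say little about how steady the counts between the sexes were. The count for males against females (7) was 1 with only NF-control fish, 0 with only NF-training fish and 3 with only OF-training fish, fits with fewer samples. DESeq2 called 1 member for overfeeding over both training states, 1 for training over both feeding states, 2 for overfeeding in untrained males and 1 for training in normally fed males, where edgeR called 0. The DESeq2 share of all genes is not given. In the same order, edgeR called 13, 54, 4 and 0 of all genes. Alternatives other than leaving out 1 fish reached 313, 208, 259 and 97, so these member calls are not read as particular to the members. For males against females in NF-control (3) the count was 1 with limma voom and 6 with library size alone, in OF-control (5) it was 3 with limma voom, and in NF-training (2) it was 4 with library size alone. With each fish left out in turn, the counts ranged from 2 to 5 in OF-training, 0 to 2 in NF-training, 2 to 6 in OF-control and 1 to 4 in NF-control, and from 0 to 1 both for overfeeding in untrained males and for training in normally fed males, the 1 arising without NF-control replicate 5 or replicate 6.

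Of 2794 values of single genes, 16 changed sign. With library size alone, which moved the median of all genes for males against females to 1.44 and called 14428 genes, 97.2% of them higher in males, against 7425 and 50.6% with TMM, fgfr4 turned to 0.59 (0.54 in OF-control and 0.24 in OF-training), nr1h4 to 1.3, SLC10A7 to 0.69, srebf2 to 0.14 and NR5A2 to 0.86. In TPM with 1 or 0.1 added, which called 11324 (88.4% higher) or 11617 genes (88.6% higher), nr1h4 turned to 0.50 or 0.52 and NR5A2 to 0.10 or 0.11. With only OF-control fish nr1h4 was 0.07, and with only NF-training fish nr1h4 was 0 and ABCB11 -0.87. With single fish left out, training in normally fed fish ranged from -1.59 to 0.12 for nr0b2a, and sex by training from -1.75 to 0 for ABCB11. The cause was not tested. Replicate numbers did not pair the fish: same-numbered fish of different groups correlated at -0.22 to 0.38 (mean 0.01). A replicate block gave 6555 called genes for males against females and nr0b2a at 0.93 (adjusted p = 0.101). Fitted on the fish of 1 group alone, males against females called 2270 genes in OF-training, 916 in NF-training, 2608 in OF-control and 670 in NF-control. Leaving out the female and male that stand apart was chosen after seeing the data and called 8 members for males against females, 6 in OF-control and 5 in OF-training. The share of all genes called without these fish is not given, so a rise among the members cannot be told from a general one. Depth limits slc10a1 and ENSDARG00000097559, with at most 16 and 40 counts per fish. Over all genes, the called counts and their range over the alternatives other than leaving out 1 fish were 13 (0 to 313) for overfeeding over both training states, 54 (5 to 208) for training over both feeding states, 28 (0 to 159) in NF-training over NF-control, 0 (0 to 85) in OF-control over NF-control and 4 (0 to 259) for overfeeding in untrained males, and for males against females 3030 (2492 to 10804) in OF-training, 1638 (1301 to 5695) in NF-training, 3338 (2846 to 11366) in OF-control and 2311 (1672 to 11598) in NF-control.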
